A study of Homo sapiens with 2 samples.

Results

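The promoters of the genes that encode the proteasome were examined in H3K27ac HiChIP data of HCT116, an established human colorectal carcinoma cell line. HiChIP ligates neighbouring chromatin fragments and then enriches, here with an H3K27ac antibody, for contacts of chromatin carrying this mark of active promoters and enhancers. Each read pair reports a contact, but not every one need carry the mark. The data held 2 replicates of 1 condition, and nothing in the labels says that the replicates came from separate cultures. Members were chosen by symbol: autosomal protein-coding genes whose name starts with PSMA to PSMG and a number, 49 of 18978 genes, of which 47 encode subunits, activators, an inhibitor or assembly chaperones and 2, PSMC3IP and PSME3IP1, are named for an interaction with one. An anchor, the stretch of genome between which contacts were counted, was a member when it overlapped the canonical start site ± 2.5 kb of such a gene. This gave 48 member anchors of 46 genes, among 16196 promoter anchors and 250223 anchors in all, and the other 16148 promoter anchors served for comparison. One more symbol match, PSMD10 on chromosome X, was left out by the rule.

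The proteasome is the large protease that degrades ubiquitin-tagged proteins. Its core is a barrel of alpha rings, which gate the entry, around beta rings, which hold the active sites, and a regulatory particle of ATPases and non-ATPase subunits recognises, unfolds and feeds in the substrate. Its genes are expressed in nearly every cell, and when proteasome activity is short the transcription factor NFE2L1, bound together with a small Maf protein, induces them through antioxidant response elements (ARE) in their promoters.

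A core of this element, TGACNNNGC on either strand, was searched in the 250 bases before each start site of GRCh37. It matched in 12 of the 49 promoters (24.5%, exact 95% binomial interval 13.3–38.9) and in 2151 of all 18978 (11.3%), including 6 of 76 cytosolic ribosomal protein promoters (7.89%). The members with a match were PSMA7, PSMB3, PSMB6, PSMB9, PSMD3, PSMD5, PSMD9, PSMD12, PSME1, PSME2, PSME4 and PSMG1. Promoters of 6 of them, chosen because the match lies within a measured anchor in a stretch of 204 to 250 bases free of annotated exons, are shown 5′ to 3′ on the strand of the gene. The match of PSMD9 also lies in such a stretch, but of 88 bases, and is not shown. Capitals mark matches to the ARE core and, in PSMB3, PSMD3 and PSMG1, also to CCAAT on either strand.
PSMA7 (chr20:60718497-60718700, minus strand): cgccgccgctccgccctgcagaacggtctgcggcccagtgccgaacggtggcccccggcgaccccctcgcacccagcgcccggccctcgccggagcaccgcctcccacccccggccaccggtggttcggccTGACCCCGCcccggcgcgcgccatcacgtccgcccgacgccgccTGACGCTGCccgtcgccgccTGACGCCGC
PSMB3 (chr17:36908744-36908993, plus strand): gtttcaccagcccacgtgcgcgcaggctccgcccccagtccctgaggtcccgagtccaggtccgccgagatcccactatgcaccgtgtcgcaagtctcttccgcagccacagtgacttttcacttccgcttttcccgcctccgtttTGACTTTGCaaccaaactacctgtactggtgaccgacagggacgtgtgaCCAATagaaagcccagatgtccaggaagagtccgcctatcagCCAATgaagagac
PSMD3 (chr17:38136810-38137059, plus strand): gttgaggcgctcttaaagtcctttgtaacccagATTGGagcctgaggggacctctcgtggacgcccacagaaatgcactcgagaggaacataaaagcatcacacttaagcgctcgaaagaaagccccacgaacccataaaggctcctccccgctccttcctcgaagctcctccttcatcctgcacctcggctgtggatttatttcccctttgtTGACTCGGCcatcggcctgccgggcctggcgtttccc
PSMD12 (chr17:65362722-65362943, minus strand): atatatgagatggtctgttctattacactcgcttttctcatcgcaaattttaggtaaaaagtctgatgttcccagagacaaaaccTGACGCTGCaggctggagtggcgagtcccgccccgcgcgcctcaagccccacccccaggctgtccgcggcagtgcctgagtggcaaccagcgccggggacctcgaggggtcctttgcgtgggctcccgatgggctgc
PSME1 (chr14:24605153-24605371, plus strand): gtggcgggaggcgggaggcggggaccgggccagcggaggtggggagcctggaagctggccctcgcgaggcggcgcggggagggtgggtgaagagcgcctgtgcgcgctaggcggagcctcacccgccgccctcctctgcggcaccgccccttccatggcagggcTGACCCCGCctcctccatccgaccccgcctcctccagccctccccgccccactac
PSMG1 (chr21:40555415-40555627, minus strand): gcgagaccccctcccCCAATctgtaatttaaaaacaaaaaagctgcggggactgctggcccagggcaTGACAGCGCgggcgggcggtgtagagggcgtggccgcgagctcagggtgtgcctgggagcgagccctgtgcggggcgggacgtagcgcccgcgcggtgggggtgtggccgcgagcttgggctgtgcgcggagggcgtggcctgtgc
PSMA7, an alpha-ring subunit, held 3 ARE cores, beginning 119, 75 and 55 bases before its start site. In the others the core began 104 (PSMB3, beta ring), 37 (PSMD3, regulatory particle), 165 (PSMD12, regulatory particle), 86 (PSME1, activator) and 183 bases (PSMG1, chaperone) before it. The other motifs searched were as common in the members as elsewhere within the counting error: CCAAT in 20 of 49 promoters (40.8%, 27–55.8) against 34.0% of all, the GC box GGGCGGG in 26 (53.1%, 38.3–67.5) against 46.1%, and GCGCATGC in 2 (4.08%, 0.498–14.0) against 3.8%. A match describes letters and not a bound site. The regions are wider than a motif by far, since the median member anchor spanned 2839 bp, so the depths given below are those of whole anchors.

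A loop is here any pair of different anchors up to 2 Mb apart with a count. All loops together held 1187129 counts in replicate 1 and 1369536 in replicate 2, and the loops of the 48 member anchors held 759 and 919, where a pair of members counts from both ends. The depth of an anchor is the number of its counts in loops, and depths are small enough that counting error dominates: exact intervals, which cover counting error only, are given with the main values. The markers of the cell line were only partly set apart. The anchors of 4 epithelial markers (EPCAM, KRT8, KRT18, CDH1) had a median summed depth of 40.5, and KRT8, an epithelial keratin, held 54 and 63 counts in replicates 1 and 2. The anchors of 6 genes of blood, liver and neural cells (PTPRC, CD3E, ALB, APOA1, GFAP, NEUROD1) had a median of 20, and the ranges of both lists overlapped (15 to 117 and 14 to 31). Olfactory receptor promoters, which are silent in colon cells, had a median of 12 over 216 anchors.

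Member anchors were deeper than the average promoter anchor, and more so per length. Their median depth was 14 in replicate 1 and 18.5 in replicate 2, compared with 12 and 14 for other promoters. Summed over replicates the median was 31.5 (quartiles 20.8 and 45.8, range 7 to 78) against 27 (16 and 42), and 30 of 48 members lay above the median of the others. Per kb of anchor the median was 10.9 counts (8.0 and 15.2) against 7.83 (5.31 and 11.4), with 37 of 48 above it. By replicate it was 4.73 and 6.23 against 3.57 and 4.20. Of the 48 anchors, 12 lay in the top decile of all promoter anchors per kb and 1, the second anchor of PSMA8, in the bottom decile. Ribosomal protein promoters, another set of genes used by every cell, were like them on this scale, with a median of 11.8 counts per kb over 75 anchors, and had a summed depth of 40. Against the median depth per kb of all anchors within 2.5 Mb the members had a median ratio of 1.65, other promoters 1.20 and ribosomal protein promoters 1.71, and 41 of 48 members (85.4%) exceeded their surroundings compared with 63.8% of the others. These are descriptions of a list and not tests.

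**Figure D1:**
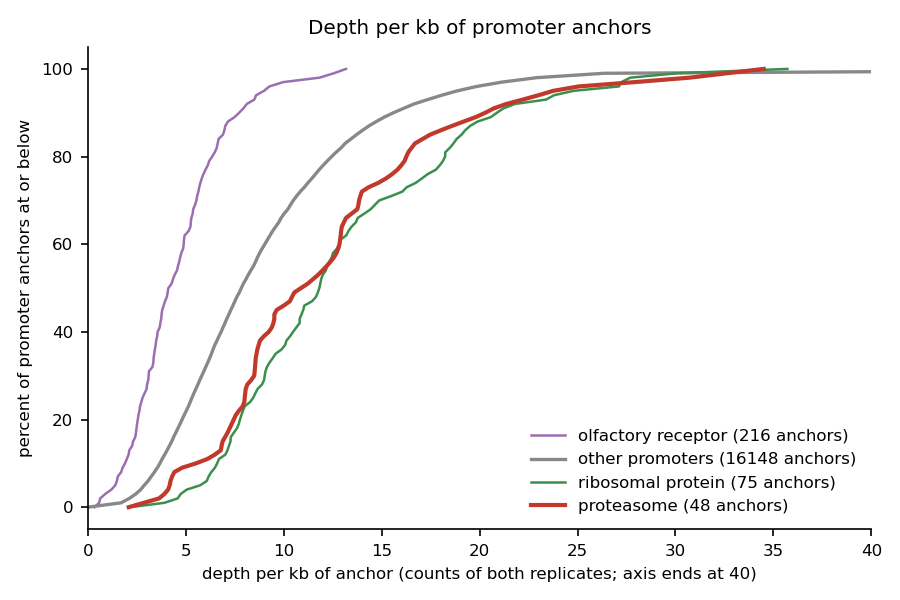
Share of promoter anchors (vertical axis, percent) at or below a given depth per kb of anchor (horizontal axis, counts of both replicates per kb, drawn up to 40). The proteasome curve runs beside that of ribosomal protein promoters, to the right of other promoters (medians 10.9, 11.8 and 7.83) and far from olfactory receptor promoters (4.10).

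Much of the difference in total depth went with where the anchor lies on the gene. The start site lay inside an anchor for 45 of 49 proteasome genes (91.8%), for 71 of 76 ribosomal protein genes (93.4%) and for 65.6% of all other genes, and anchors that hold a start site were deeper than those that only come within 2.5 kb of one (other promoters, 32 and 18 counts). Among anchors that hold a start site the members had a median depth of 33 and the others 32, a ratio of 1.03. Per kb the members stayed above, with 10.5 against 8.40, and so did the ratio to the surroundings, with 1.64 against 1.28, beside narrower member anchors (median 2840 bp against 3588 bp). The members also had more start sites in their surroundings. A second start site lay in the same anchor for 13 of 48 members (27.1%), 7.93% of other promoter anchors and 26.7% of those of ribosomal proteins. Among anchors that hold a start site the shares were 28.9%, 11.6% and 28.2%. In 3 of the 13 members the second start site belonged only to an unnamed gene model. A gene that starts within 1 kb upstream and runs the other way was found for 8 of 49 members (16.3%, 7.32–29.7) and 9.62% of all genes, for example MRPL32 at PSMA2, SIRT3 at PSMD13 and ACYP2 at PSME4. Counts of such an anchor cannot be assigned to 1 of its genes.

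The anchors of 5 members, PSMD3, PSMC3IP, PSME3, PSMC5 and PSMD12, lie between 17q21 and the end of the long arm of chromosome 17, a segment that is known to be present in extra copies in HCT116. Their median depth was 54, compared with 29 for the other 43 members. Other promoters showed the same step on this chromosome, with a median of 44 from 17q21 on and 25 before it. Without the 5 anchors and other promoters of the gained segments, the members had a median of 29 against 26, and 9.52 against 7.57 counts per kb. The share of copy number in the depth of these 5 genes was not tested.

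The depths of single genes ranged over more than counting error. Of the 46 genes with an anchor, 25 lay above the median of other promoters in both replicates and 10 below it in both, while 11 lay on different sides or at it. This split was not computed for other promoters, so it is not read as particular to the members. The median used also includes anchors without a start site. Between replicates, the ratio of replicate 1 to replicate 2, each relative to its own total in loops, had a median of 0.902 (range 0.401 to 2.69). No promoter anchor, member or other, differed between replicates after Benjamini-Hochberg adjustment over all promoter anchors (exact binomial test). This result is therefore not particular to the members. At an unadjusted p under 0.05 were 4 of the 48 member anchors and 645 of the 16196 promoter anchors (3.98%).

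**Figure D2:**
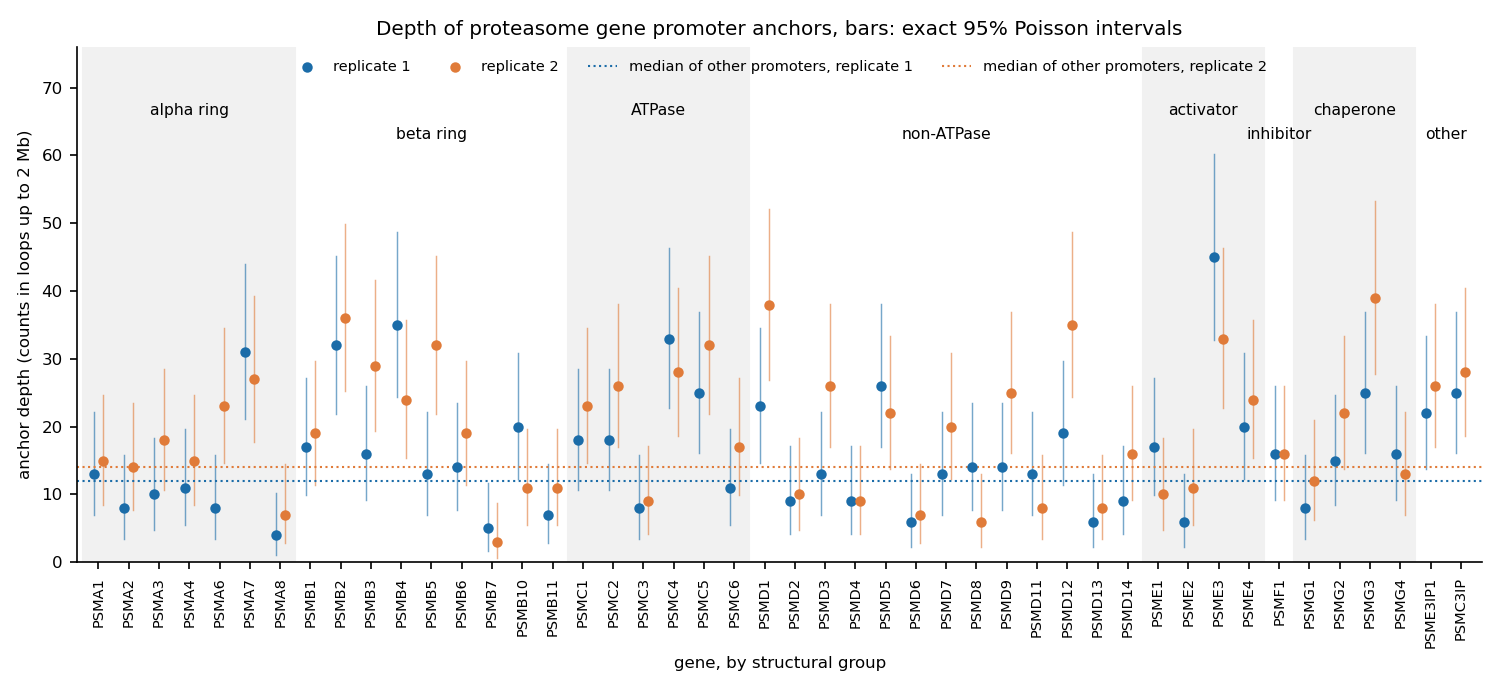
Depth of the anchor of each proteasome gene (vertical axis, counts in loops up to 2 Mb) by structural group, with replicate 1 and replicate 2 as points, exact 95% Poisson intervals as bars and the medians of other promoters, 12 and 14, as dotted lines. PSME3 and PSMB2 stand well above these lines in both replicates, and PSMB7 and PSMA8 lie below them.

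In the alpha rings, 7 of 8 genes had an anchor and the median summed depth was 28, with 4 genes above the median of other promoters. Here and in the groups below that median is 27, over anchors with and without a start site. Other promoter anchors that hold a start site had a median of 32, and of the alpha genes PSMA7 alone exceeded it. PSMA7 was the deepest with 31 and 27 counts in replicates 1 and 2, but its anchor was the widest of the members (7276 bp), so that its depth per kb was 7.97, close to that of the average promoter. It also holds the start site of SS18L1. The lowest was PSMA8, whose product replaces PSMA7 in the proteasome of male germ cells, with 4 (exact Poisson interval 1.09–10.2) and 7 (2.81–14.4) counts, both below the interval of PSMA7 (21.1–44 and 17.8–39.3). Its anchor was also far narrower (1845 bp), and per kb it held 5.96 counts, nearer to PSMA7. A second anchor within reach of PSMA8, without its start site, held 2 and 5 counts. The remaining anchored alpha genes (PSMA1, PSMA2, PSMA3, PSMA4 and PSMA6) held 22 to 31 summed counts.

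In the beta rings, 9 of 11 genes had an anchor, with a median of 36 and 7 above the median of other promoters. PSMB2, a structural subunit, was the deepest with 32 and 36 counts, 22.7 per kb and a ratio of 3.64 to its surroundings. The lowest was PSMB7, which carries the trypsin-like activity of the standard proteasome and is used by every cell. Its anchor, at chr9:127176831-127178975 and holding the start site, had 5 (1.62–11.7) and 3 (0.619–8.77) counts, below the median of other promoters in both replicates and the lowest depth of all 46 genes. It had 2 sites of MboI, the enzyme that cut the chromatin, in 2145 bp, where member anchors had medians of 6 sites and 2839 bp. The anchors of PSMD6 and PSME2 also had 2 sites, with 13 and 17 summed counts, and that of PSMD13 had 1, with 14. Whether the number of sites bears on depth was not tested. Of the other standard catalytic subunits, PSMB5 (chymotrypsin-like) held 13 (6.92–22.2) and 32 (21.9–45.2) counts and PSMB6 (caspase-like) 14 (7.65–23.5) and 19 (11.4–29.7), or 16.1 and 15 per kb against 3.73 for PSMB7. Both were above PSMB7 in each replicate, with intervals that overlapped its own in replicate 1 and not in replicate 2.

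Of the inducible counterparts of these 3 subunits, which replace them in the immunoproteasome, only PSMB10 had an anchor. It held 20 (12.2–30.9) and 11 (5.49–19.7) counts in 4519 bp, or 6.86 per kb. In replicate 1 its interval did not overlap that of PSMB7, which it replaces, and in replicate 2 the intervals overlapped. These are intervals of whole-anchor counts, and the anchor of PSMB7 was narrower (2145 bp, 3.73 counts per kb). Whether the depths per kb differ was not tested. PSMB8 and PSMB9 had no anchor, and neither had anything else near them: they lie in a stretch of 4970 kb of fully known sequence on chromosome 6 that holds 183 protein-coding start sites and not 1 anchor in either replicate. Of 90 such stretches of 1 Mb or more on the autosomes it held the most start sites. No level can be read from this for PSMB8 or PSMB9. PSMA5, the third gene without an anchor, lay just outside the rule, with the closest anchor 2776 bp from its start site and 7 counts in each replicate. PSMB11, the subunit of thymic epithelium, counted as a member through an anchor without its start site, which lies 5.11 kb from the anchor of PSMB5 and held 7 and 11 counts.

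In the regulatory particle, the 6 ATPases had a median of 42.5, with 5 above the median of other promoters, and ran from 17 to 61. PSMC4 held 33 and 28 counts and PSMC5 25 and 32, and the lowest was PSMC3 with 8 and 9. The 13 non-ATPase subunits had a median of 25, with 6 above it, and ran from 13 to 61, so that the ranges of both groups overlapped. PSMD1, a large scaffold subunit, held 23 and 38 counts, and PSMD6, at the other end, 6 and 7. PSMD12 had the greatest depth per kb of all members, with 19 and 35 counts in 1565 bp or 34.5 per kb, which is at percentile 99.8 of promoter anchors. It is in the gained segment of 17q, and its ratio to its surroundings was 3.29.

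The 4 activators ran from 17 to 78 counts. PSME3, the subunit of a nuclear activator that works without ubiquitin, had the deepest anchor of all members with 45 (32.8–60.2) and 33 (22.7–46.3) counts, 30.5 per kb and a ratio of 3.24 to its surroundings. PSME2, of the interferon-induced activator, held 6 and 11 counts and its partner PSME1 17 and 10. The intervals of PSME3 and PSME2 did not overlap in either replicate. The inhibitor PSMF1 held 16 and 16 counts. Of the 4 assembly chaperones PSMG3 was the deepest with 25 and 39 counts, which at 24.3 per kb was 3.96 times its surroundings, the highest such ratio of the members, and PSMG1 the lowest with 8 and 12. Both genes named only for an interaction were deep, PSME3IP1 with 22 and 26 counts and PSMC3IP with 25 and 28. The anchor of PSME3IP1 also holds the start site of RSPRY1.

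Of the members, 21 of 48 (43.8%, exact interval 29.5–58.8) had at least 1 loop with a summed count of 5 or more, the count the study took for a high interaction signal, compared with 34.4% of all promoter anchors. Ribosomal protein promoters reached 65.3% and olfactory receptor promoters 5.56%. With loops of 20 kb or more the members were at 5 of 48 (10.4%, 3.47–22.7) and all promoters at 10.0%. The interval of the members included the background in both cases. Among anchors that hold a start site, 46.7% of members and 40.1% of other promoters had a loop of 5 or more counts. All 5 anchors in the gained segment (47.8–100%) had a loop of 5 or more counts, compared with 57.8% of other promoters in gained segments, and 16 of the other 43 members (37.2%) compared with 32.4% of other promoters elsewhere. Each gene had between 8 (PSMB7) and 48 loops (PSMD1), with a median of 26. Other promoter anchors had a median of 20, and those that hold a start site 24. A median of 2 loops per gene were found in both replicates. For 6 genes no loop was found in both, and neither of these values was computed for other promoters.

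The 28 loops of the members with 5 or more counts were mostly short, as were those of other promoters. Under 20 kb were 23 of them (82.1%), compared with 74.0% of such loops of other promoters. The partner was another promoter in 5, a distal anchor inside a gene in 19, of which 12 lay in the body of the member itself, and a distal anchor outside genes in 4. Counts were present in both replicates for 26 of the 28, which were chosen by their summed count. The partner classes and this share were not computed for such loops of other promoters. They are therefore not read as particular to the members. The strongest loop joined the anchor of PSME3 at chr17:40984262-40986821 to the promoter of BECN1, a gene of autophagy, over 9.21 kb with 9 and 6 counts. The annotated body of PSME3 itself also overlaps this partner anchor. Next in count was PSME3IP1 with the body of the neighbouring RSPRY1 over 8.24 kb with 8 and 6 counts. Then came PSMC5 with the promoter of SMARCD2, a chromatin remodelling subunit, over 12.4 kb with 5 and 8 counts. The anchor of PSME3IP1 also holds the start site of RSPRY1, and that of PSMC5 the start site of FTSJ3. Neither loop can therefore be assigned to the member rather than to the gene that shares its anchor.

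An expected count was set for each pair by its length and by how deep both of its ends were in all other pairs. The strongest loops stood at 2.42 times it (PSME3 with BECN1, interval 1.35–3.99), 4.15 (PSME3IP1 with RSPRY1, 2.27–6.97) and 2.46 (PSMC5 with SMARCD2, 1.31–4.21). Over the 28 loops the median ratio was 2.75, and over loops of 5 or more counts of other promoters, chosen by count in the same way, 2.16. With the own count of a pair kept in the depth these medians were 1.76 and 1.51. Against this expectation 0 of 19404 member pairs passed in either replicate (exact Poisson test, one-sided, adjusted p under 0.01 after Benjamini-Hochberg over all 51094607 anchor pairs). Few pairs passed anywhere, 5 in replicate 1 (9.79e-06%) and 14 in replicate 2 (2.74e-05%). At an unadjusted p under 0.05 there were 224 and 249 member pairs and 4 in both replicates. On summed counts there were 297 of 19404 member pairs (1.53%), close to the 1.40% of all pairs. With distance alone as expectation 1 member anchor was called in each replicate, where 2.25% and 2.98% of promoter anchors had a call: PSME3 with BECN1 in replicate 1 (adjusted p = 0.00432 by the exact Poisson test) and PSMC3IP with the promoters of CCR10 and PLEKHH3 in replicate 2 (adjusted p = 0.00119). Both lie in the gained segment of 17q.

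Longer loops of single genes rested on few counts. Of the loops of 20 kb or more with counts in both replicates, PSMC3IP with the promoter anchor of CCR10, a chemokine receptor, and PLEKHH3 had the strongest excess among those with 7 counts. It spanned 100 kb, from chr17:40728391-40731038 to chr17:40828356-40831840, with 2 and 5 counts against 0.397 and 0.362 expected, which summed is 9.24 times (3.72–19.0, adjusted p = 0.789 by the exact Poisson test on summed counts). PSMD3 with the body of GSDMA, a gasdermin, held 3 and 4 counts over 21.8 kb, 6.0 times the expected count (2.41–12.4). PSMG3 with the overlapping bodies of MAFK and TMEM184A held 1 and 6 over 23.4 kb, and PSMA7 with the promoter of LSM14B, an RNA-binding protein, 5 and 2 over 22.5 kb, at 2.13 (0.857–4.39) and 2.0 (0.804–4.12) times the expected count. MAFK is another of the small Maf proteins that pair with NFE2L1.

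The 6 further loops of this list had 4 summed counts. PSME3 with a distal anchor outside genes at 31.5 kb held 2 and 2 counts, at a ratio of 5.48 (1.49–14.0). The intervals of the other 5 included 1, namely PSMC2 with the body of PMPCB, PSMC5 with the promoters of CCDC47 and DDX42, PSMD5 with the promoter of PHF19 and distal anchors of PSMB2 and PSMA7. These 10 loops were picked for their counts from many pairs and had an adjusted p of 0.789 or more on summed counts, so none is called above expectation. Another 26 loops of 20 kb or more were tied at 3 counts and are not named.

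**Figure D3:**
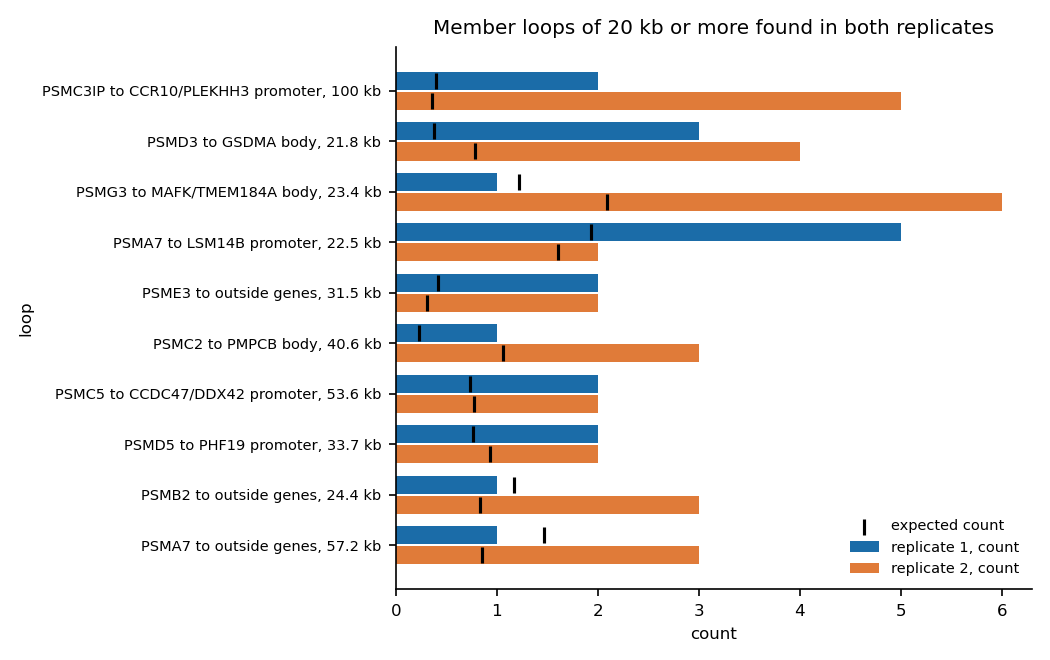
Counts in replicate 1 and replicate 2 (bars, horizontal axis) of the 10 member loops of 20 kb or more that have 4 or more summed counts and are found in both replicates, with the expected count as a black tick. The longest bars reach 5 or 6 counts (PSMC3IP, PSMG3, PSMA7), and the replicates differ visibly for each of these 3.

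Member anchors had more of their counts with other promoters and fewer with anchors outside genes. In replicates 1 and 2, 22.1% and 24.6% of their counts joined them to the promoter of another gene, summed 23.5% (21.5–25.6) compared with 18.6% for other promoters and 31.2% for ribosomal protein promoters. Distal anchors inside a gene took 52.5% (50.1–54.9) against 49.3%, and those outside genes 23.5% (21.5–25.6) against 29.9%. The shares expected from distance and anchor depth, own count kept, differed in the same way, 22.5% against 17.6% for other promoters as partners, so the excess over expectation was alike: with the own count left out the ratio was 1.12 (1.02–1.24) for members and 1.13 for other promoters, and with it kept 1.04 (0.943–1.15) and 1.05. For ribosomal protein promoters the ratio was 1.31 with the own count left out and 1.14 with it kept. Proteasome genes had a median of 4 other start sites within 100 kb (quartiles 2 and 9), all other genes 3 (1 and 5).

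The share of promoter partners varied widely from gene to gene, with a median of 18.6%. PSME1 had the highest, 74.1% of 27 counts with 13 promoter anchors, followed by PSMD13 with 64.3% of 14 counts. PSME3 reached 44.9% of 78 counts with 14 promoter anchors. At the other end PSMD6 had none in 13 counts, which allows a share of up to 23.1% (3 counts of 13), and PSMC2 had 2.27% of 44 counts, with 20 of them under 20 kb.

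**Figure D4:**
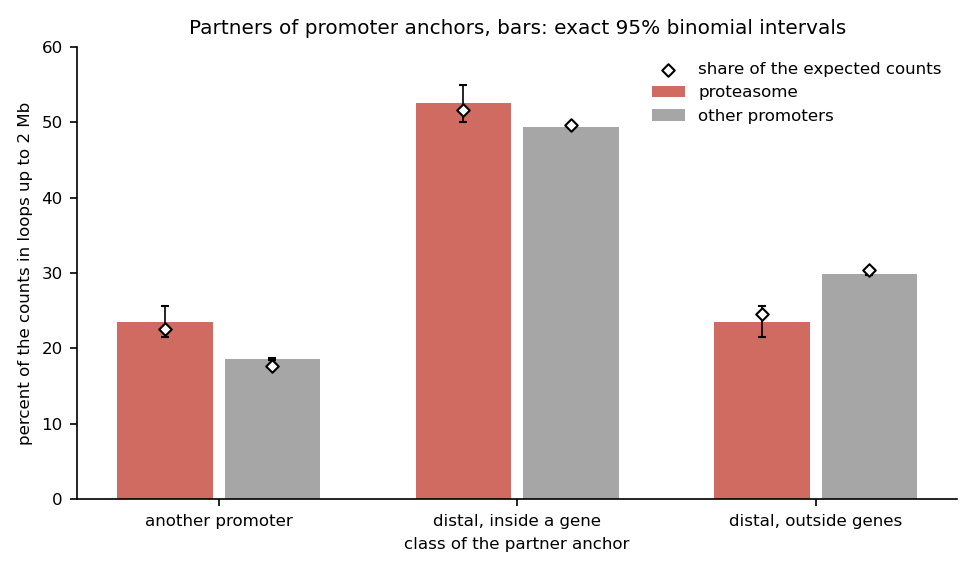
Share of the counts in loops up to 2 Mb (vertical axis, percent, bars with exact 95% binomial intervals) that joined promoter anchors to 3 classes of partner, for proteasome and other promoters, with the share of the expected counts (own count of a pair kept) as diamonds. The proteasome bars differ from those of other promoters (23.5% against 18.6% for another promoter), and the diamonds differ with them (22.5% against 17.6%).

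By distance, member anchors had fewer counts in the longest loops than distance and the depth of both anchors give. From 500 kb to 2 Mb they held 127 and 160 counts in replicates 1 and 2 against 164 and 197 expected, summed a ratio of 0.793 (0.704–0.891) compared with 0.901 for other promoters and 0.932 for ribosomal protein promoters. The ratios of the replicates were 0.772 and 0.810, and with the own count kept the summed ratio was 0.791 against 0.898. From 20 to 100 kb the ratio was 1.19 (1.09–1.30) against 1.11, and with the own count kept 1.12 (1.02–1.22) against 1.05. Under 20 kb it was 1.34 (1.20–1.48) against 1.25, and kept 1.06 (0.95–1.17) against 1.01, so most of this excess went with leaving the own count out. As a share of all their counts, the members held 17.1% (15.3–19.0) from 500 kb to 2 Mb and other promoters 18.1%, which is the same order. The ratio to distance alone, which leaves out anchor depth, was 1.47 (1.31–1.65) for members and 1.41 for the others. That ratio was higher for the members in each of the shorter distance classes too, for example 1.93 against 1.67 from 20 to 100 kb. With distance and anchor depth as expectation and the own count left out, the ratio between 100 and 500 kb was 1.05 (0.964–1.14) against 1.04. Intervals for counts of 48 anchors take each count as independent and cover no spread between anchors.

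**Figure D5:**
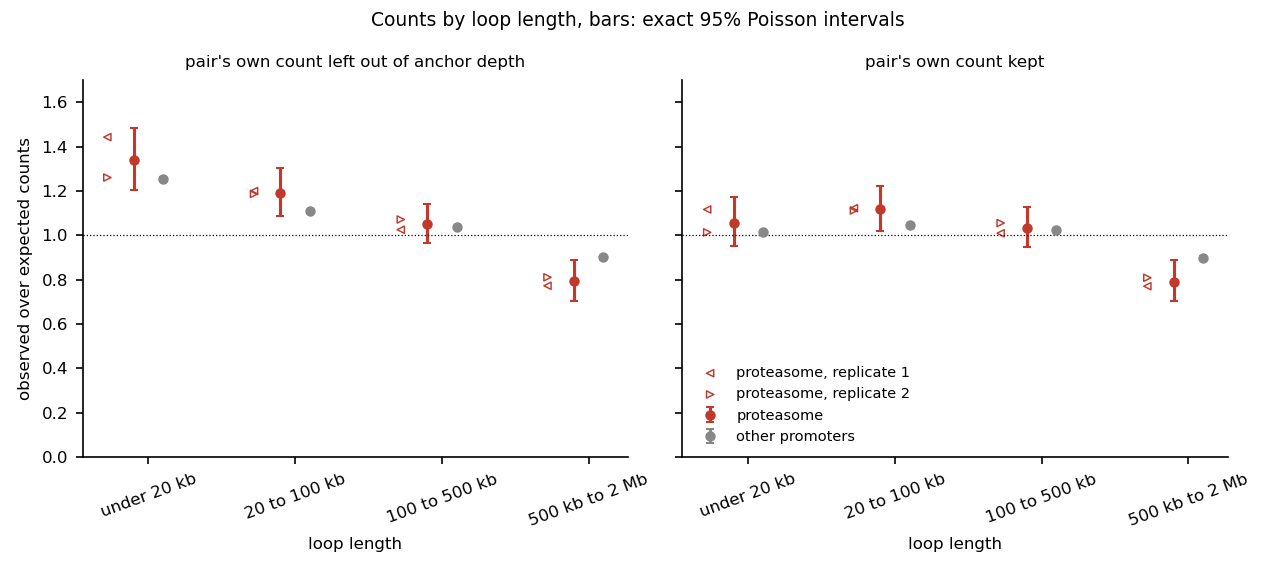
Observed over expected counts (vertical axis) of proteasome and other promoter anchors by loop length, with the own count of a pair left out of the anchor depth (left) or kept (right), exact 95% Poisson intervals as bars and the 2 replicates of the proteasome anchors as triangles. Proteasome anchors lie below 1 and below other promoters at 500 kb to 2 Mb in both panels (0.793 and 0.791, against 0.901 and 0.898).

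Loop length itself was like that of other promoters. The 617 and 733 loops of members had a median of 137 and 157 kb, compared with 150 and 157 kb, and 42.5% and 41.3% were under 100 kb, compared with 41.8% and 40.5%. Both replicates shared 11.8% (9.99–13.7) of all member loops, against 13.3%. Counts of an anchor with itself, which lie within 1 anchor and are no loop, were 15.4% and 13.0% of the counts of members and 14.5% and 13.3% of those of other promoters. Contacts showed no side: 48.5% (45.7–51.3) of the counts of the 35 anchors with start sites on 1 strand went downstream, against 49.4%. Member anchors also matched others in MboI sites (2.13 per kb in both) and GC content (50.1% and 49.9%).

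Members on the same chromosome had no detectable excess of contacts with each other. There were 10 pairs of different proteasome genes within 2 Mb, with 1 and 4 counts against 2.10 and 2.85 expected, summed a ratio of 0.987 (0.321–2.30). The counts were 3 in replicate 2 between PSMB5 and PSMB11, 1 in replicate 1 between PSMC3IP and PSME3, 256 kb apart, and 1 in replicate 2 between PSMD4 and PSMB4, 145 kb apart. PSME1 and PSME2, both subunits of the same activator and 10.7 kb apart, had none in either replicate against 0.551 and 0.579 expected, too few for a difference to be detectable.

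The other genes of the pathway, a list of 17 that mature, bind or regulate the proteasome, all had an anchor. Not all of these anchors held a start site (94.1% did). Their median depth was 35 (range 2 to 94), with 12 above the median of other promoters, and per kb 8.01, near that of other promoters (7.83). Loops of 5 or more counts were found for 9 of the 17 (52.9%, 27.8–77.0, beside 34.4% of all promoter anchors), and of 20 kb or more for 5 (29.4%, 10.3–56.0, beside 10.0%). The deepest were NFE2L1 with 43 and 51 counts and its small Maf partner MAFG with 41 and 43, with ratios to their surroundings of 0.921 and 1.79. Both lie in the gained segment of 17q, where other promoters had a median summed depth of 44. Both are also among the 9 and the 5 genes with such loops, and the share of copy number was not tested. UCHL5, a deubiquitinase of the regulatory particle, held 31 and 41, in an anchor that also holds the start site of RO60, and NFE2L2, a transcription factor related to NFE2L1, held 27 and 42. The other proteasome-bound deubiquitinase of the list, USP14, was at 0 and 2 in an anchor of 1213 bp. A count of 0 was taken to allow up to 3 counts. POMP, the maturation factor of the core, held 24 and 24.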

How the data were processed

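H3K27ac HiChIP libraries of HCT116 (2 replicates, 1 condition, chromatin cut with MboI) were processed by the authors with HiC-Pro and hichipper on hg19, with versions not given in the sources used here. The deposited tables list pairs of anchors with a raw count of read pairs in each replicate, not normalised, and hold no column of other samples. Start sites and genes were those of GENCODE release 44 lifted to GRCh37. A loop was a pair of different anchors whose midpoints lay within 2 Mb. Expected counts came from 60 distance classes and anchor weights balanced in 20 rounds, and each pair's own count was left out of its anchors with an offset of 0.5. Keeping it, or using distance alone, were alternatives, as were promoter width, distance limit, count minimum, depth per kb, gained segments and each replicate alone. Calls used the exact Poisson test, upper tail, at a Benjamini-Hochberg adjusted p under 0.01. Intervals are exact at 95%, and apart from them a count of 0 was taken to allow up to 3 counts. All members are accounted for by structural group. Named are the deepest and shallowest gene of each group, the catalytic subunits with their counterparts, and the 10 loops of 20 kb or more with 4 or more summed counts found in both replicates. The rule asked for 12, but places 11 and 12 were tied among 26 loops of 3 counts, none of which is named. Members and lists were chosen with earlier results of these data known. The scripts (scipy 1.17.1, numba 0.67.0, numpy 2.4.6, pysam 0.24.0 and pandas 2.3.3 on Python 3.11.15) were tested on simulated data. The total of counts in loops was 1187129 and 1369536, so that a median promoter anchor held 12 and 14 counts. Read pairs without molecular identifiers need not be independent molecules.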

Additional observations from a re-analysis of the deposited data

How the results depend on the processing

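The ratio of the median depth of members to that of other promoters was 1.17, and became 1.03 among anchors that hold the start site, 1.39 per kb, 1.30 against anchors of like width and 1.37 against the surroundings, with 1.17 to 1.32 in single replicates. Combinations chosen after seeing the data gave 1.28 for start-site anchors against the surroundings, and 1.25 and 1.21 for them per kb and against anchors of like width. The 21 anchors with a loop of 5 or more counts of 48 (43.8%, others 34.4%) stayed 21, of 45, among anchors that hold the start site (46.7%, others 40.1%). They became 13 of 35 with 1 start site at most (37.1%, others 33.1%), 3 at 10 or more counts (6.25%, others 6.40%), 3 at 5 or more in each replicate (6.25%, others 3.93%), 5 at 20 kb or more (10.4%, others 10.0%), and 8 to 9 in single replicates (16.7% and 18.8%, others 12.2% and 9.21%). The share of counts with another promoter, 23.5%, was 20.1% (others 16.7%) with promoters of ± 1 kb, 19.0% (15.5%) for start-site anchors, 21.3% (18.5%) without gained segments, 21.7% (17.2%) without a distance limit and 27.2% (22.1%) from 2 counts on. Its ratio to expectation, 1.12, was 2.63 with distance alone (others 2.54) and 1.03 to 1.21 in single replicates. The median loop length, 179 kb, was 145 kb with a limit of 1 Mb, 431 kb without a limit, 94.6 kb weighted by count, 36.4 kb from 2 counts on and 137 to 157 kb in single replicates. The 0 called anchors became 2 with distance alone. The other alternatives moved these values by less than the replicates differed or within 1.5 times, which holds for all alternatives of the same-anchor share (14.1%, 13.0% to 15.4% in single replicates) and of the member pairs (0.987, 0.477 to 1.40). No paired analysis was possible because there was 1 condition.

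The culture origin of the 2 replicates is not stated, so whether their spread is technical or biological cannot be told apart. Depths of 7 to 78 counts per anchor leave wide intervals, and most loops (80.2%) held 1 count. Counts reflect H3K27ac, contact and copy number together, and these cannot be told apart here. No gene expression was analysed here. Genes that share an anchor share its counts.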
